A study of Mus musculus with 90 samples.

Results

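Fgf21, Gdf15, Leap2, Enho, Lect2, Ahsg and Fetub encode proteins that the liver releases into the blood as metabolic signals, and their RNA was measured in mouse liver. They were picked by name, as 7 of the 24312 gene symbols in the expression table, and where a gene had several RefSeq IDs the most abundant one stood for it. The study examined how a meal acts on the liver under night-restricted feeding (NRF), in which mice receive food in the dark phase only, and how glucocorticoid and insulin signalling take part. RNA was sequenced in 54 libraries, each from the liver of a single mouse, in 5 experiments, and lists of binding sites of the glucocorticoid receptor (GR) and of FOXO1 and of DNase I hypersensitive sites (DHSs, open chromatin) were made from livers of the same feeding scheme.

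The labels give C57BL/6 as the background of all mice, and the methods give C57BL/6N for the wild-type mice of the first 2 experiments and the Nr3c1 fl/fl mice and C57BL/6J for L-IRSdKO. All mice were kept on NRF for 4 days, and times are zeitgeber times (ZT) with lights off at ZT12. In the first experiment, uninjected wild-type mice of 10 weeks gave 2 libraries each at ZT10, at ZT14 without food (ZT14-unfed) and at ZT14 with food from ZT12 (ZT14-fed), from RNA depleted of ribosomal RNA. In the second, wild-type mice of 10 weeks were injected 30 minutes before the time of feeding and killed at ZT14. Groups of 4 received vehicle (PBS) without food, vehicle with food, dexamethasone (dex, a synthetic glucocorticoid, 1 mg/kg) with food, the insulin receptor antagonist S961 (labelled 44 nM per mouse) with food, or both agents with food. In the third, unfed Nr3c1 fl/fl mice had received 2 weeks before NRF an adeno-associated virus (AAV) that carried GFP or Cre behind the liver-specific Tbg promoter, so that Cre deletes the GR gene in hepatocytes (L-GRKO), with 4 mice each. In the fourth, Irs1 fl/fl Irs2 fl/fl mice of 10 weeks without Cre or with Alb-Cre, which acts in cells that express albumin (L-IRSdKO), gave 4 libraries each, and all 8 mice were fed and had received dex at 1 mg/kg. In the fifth, mice were put on chow (lean) or a high-fat diet (obese) at 5 weeks of age for 10 weeks before NRF, and gave 3 unfed and 3 fed libraries per diet.

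The liver secretes peptides and glycoproteins that report its metabolic state to other organs. FGF21 rises in the liver with fasting, with amino acid shortage and with overfeeding, under the control of PPAR alpha, ATF4 and ChREBP, and acts through FGF receptors that pair with beta-Klotho. GDF15 is released on cellular stress and lowers food intake through GFRAL in the hindbrain, while LEAP2 blocks the ghrelin receptor and is known to be higher in the fed state. Adropin, the product of Enho, acts on fuel choice, LECT2 is a chemotactic factor linked to insulin resistance, and the fetuins AHSG and FETUB are abundant plasma glycoproteins of the cystatin family that inhibit mineralization and proteases.

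RNA levels are RPKM, which scale reads to transcript length and library size, so that levels can be compared between genes. The libraries of the 5 experiments differed in depth. From the smallest step in the RPKM values of short RNAs, the implied sizes were 25.97 to 38.03 M counted units in the uninjected mice, 6.444 to 13.42 in the injected mice, 30.33 to 54.56 in the Nr3c1 fl/fl mice, 3.623 to 4.462 in the Irs1 fl/fl Irs2 fl/fl mice and 16.82 to 62 in the diet experiment. What was counted as 1 unit is not given in the sources used here, and in the Nr3c1 fl/fl and the Irs1 fl/fl Irs2 fl/fl mice these sizes differ from the read numbers that the study lists, so they serve only as an approximate depth. The hepatocyte marker Alb was between 18850 and 60600 RPKM in the other experiments but between 649.8 and 914.2 RPKM in the 8 libraries of the Irs1 fl/fl Irs2 fl/fl mice, where the highest value of any gene was 673.9 to 914.2 RPKM. The top of the range, where Ahsg lies, was thus compressed in these libraries. Nr3c1 was between 12.8 and 16.2 RPKM with AAV-GFP and between 3.93 and 5.35 with AAV-CRE (log2 fold change -1.58, adjusted p 6.83e-05). Irs1 was between 2.21 and 4.73 RPKM in the floxed controls and between 0.149 and 0.321 in L-IRSdKO (-2.66, adjusted p 0.000916), whereas Irs2 overlapped between the groups (0.614 to 5.61 against 0.272 to 1.00, adjusted p 0.308). L-IRSdKO replicate 1 stood apart from the other L-IRSdKO mice for several of the genes below. In the injected groups, the deviations of the fourth libraries from their group means correlated at a median of 0.509, against -0.0506 for pairs of unlike number. What the fourth libraries share is not given in the sources used here. For every difference that passed, and for all 7 genes after loss of Irs1 and Irs2, the value without these libraries is given too.

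The 7 genes spanned more than 3 orders of magnitude in level. Ahsg had a median over the libraries of 3550 RPKM, Fetub of 290 RPKM, Lect2 of 62.3, Leap2 of 21.5, Enho of 6.44, Gdf15 of 1.87 and Fgf21 of 0.585. They also differed in how much mice of the same group varied. The pooled SD within groups on the log2 scale was 0.999 for Gdf15 and 0.747 for Fgf21, wider than for 99.1% and 98.2% of 10521 genes, and 0.52 for Enho and 0.47 for Leap2. It was 0.268 for Lect2, 0.197 for Ahsg and 0.171 for Fetub, around the 0.207 of the median gene. The members that were low and variable are thus those for which the groups of 2 to 4 mice give the widest intervals. Some of the Fgf21 values rest on few reads.

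Differences between groups were tested with limma on log2(RPKM + 0.5), with Benjamini-Hochberg (BH) adjustment over all tested genes, at an adjusted p under 0.01 in the uninjected mice and the diet experiment and under 0.05 elsewhere. The scale understates the changes of genes near 0.5 RPKM, which concerns Fgf21 most. Since each library is 1 mouse, the p-values measure the spread between mice of an experiment. In the injected mice this spread includes what the fourth libraries share, for which the main fit had no term. In all, 117 comparisons of a gene were tested and 9 passed. Among injected mice, 1 of 7 genes passed after dex (Leap2, 3.19% of all tested genes), 1 after S961 (Fgf21, 1.9%), 1 after both agents (Gdf15, 10.6%), 1 for both agents in fed mice against unfed mice (Gdf15, 2.32%), 1 for S961 on top of dex (Leap2, 2.96%) and 1 for dex on top of S961 (Gdf15, 1.91%). Loss of Irs1 and Irs2 changed 3 of 7 (Leap2, Lect2 and Ahsg) beside 17.4% of all tested genes.

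No member passed in the other comparisons, for which the members with an unadjusted p under 0.05 are given beside the share of all tested genes with such a p. For time without food, where 1.16% of all genes passed the threshold, 3 of 6 tested members had an unadjusted p under 0.05, beside 26.4% of all genes. For the meal in uninjected mice (0.99% passed) 3 of 6 did, beside 27.7%, and for the meal in vehicle-injected mice (3.13% passed) 1 of 7 did, beside 19.3%. GR loss (6.68% passed) gave 1 of 7 beside 20.1%, the meal in lean mice (10.2% passed) 2 of 7 beside 36.3% and the meal in obese mice (1.22% passed) 1 of 7 beside 25.2%. Obese against lean livers gave 1 of 7 beside 22.9% in unfed mice (0.77% passed) and 1 of 7 beside 20% in fed mice (0% passed). The dex by S961 interaction (0% passed) gave 2 of 7 beside 4.56%, and the diet by meal interaction (0.131% passed) gave 0 of 7 beside 15%. With so few members, these counts are a description of the members.

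**Figure D1:**
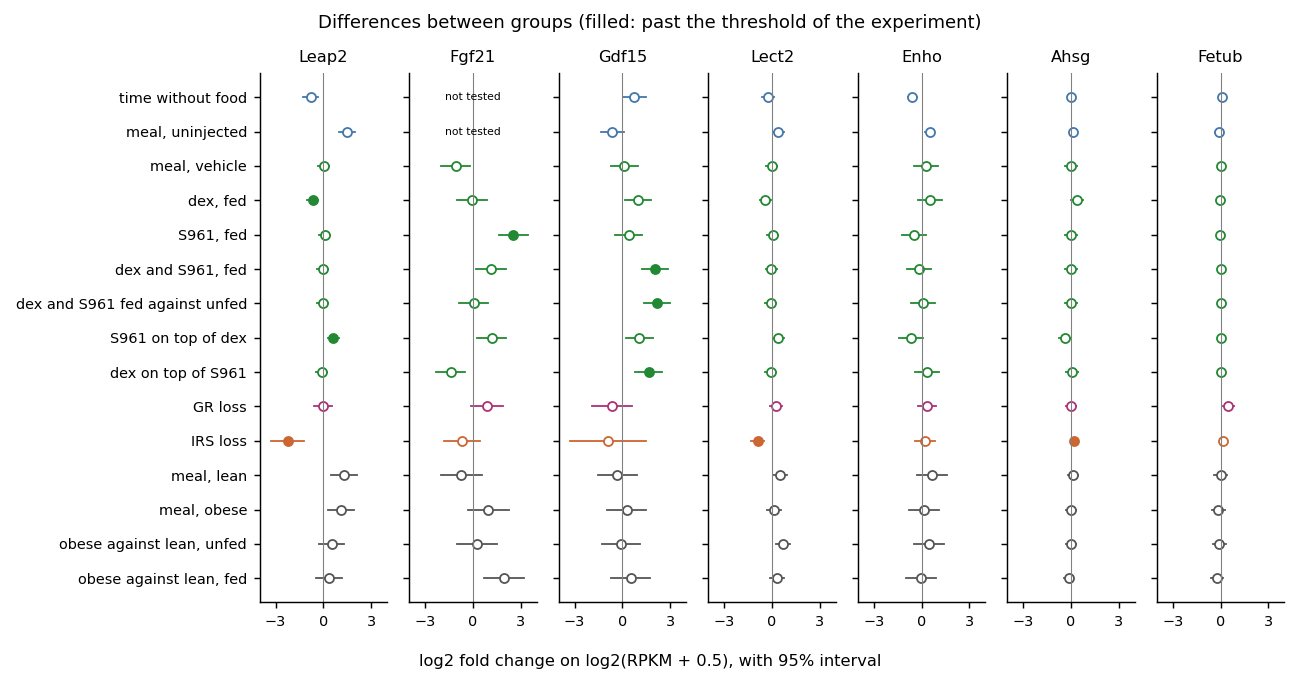
Log2 fold change (x axis, on log2(RPKM + 0.5)) of each gene (panels) in each comparison (y axis), with 95% intervals from limma. Filled points passed the threshold of their experiment, which were Leap2, Fgf21 and Gdf15 among injected mice and Leap2, Lect2 and Ahsg after loss of Irs1 and Irs2. Fgf21 was below the filter in uninjected mice.

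The peak lists place GR or FOXO1 near every one of these genes in unfed livers. Within 50 kb of the transcription start site (TSS), 6 of 7 genes had a GR peak, beside 33.6% of all 22121 placed genes and 47.5% of the 11406 placed genes that averaged 0.5 RPKM or more. A FOXO1 peak lay within that distance for 7 of 7 genes, beside 35.3% and 50.4%, and a DHS for 7 of 7, beside 88.3% and 99.6%. The numbers of genes with a peak were the same within 20 kb, beside 18.9%, 20.9% and 80.4% of all placed genes, and within 100 kb, beside 49.8%, 50.9% and 92.8%, for GR, FOXO1 and DHSs. Ahsg and Fetub are neighbours on chromosome 16 and share part of these sites, so the 25 GR and 26 FOXO1 peaks counted over the genes are 20 and 21 distinct windows. Enho was the gene without a GR peak. The lists give positions only and hold no signal per condition, and distance does not assign a site to a gene.

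Each window was searched on both strands for 6 short motifs, which may overlap. These were the GR inverted repeat core ACANNNTGT, the single GR arm TGTTCT, the forkhead cores TGTTTAC and TATTTAC, the C/EBP motif TTGCNNAA and the amino acid response element TGATGNAA. Among all GR peaks, 20.3%, 27.7%, 7.29%, 5.18%, 31.5% and 8.63% held them, in that order, and among all FOXO1 peaks 12.7%, 19.5%, 18.8%, 7.13%, 24.3% and 6.68%. Of the 20 distinct GR windows near the 7 genes, 2, 4, 0, 4, 9 and 2 held them, and of the 21 FOXO1 windows 3, 3, 5, 3, 3 and 2. In the sequences shown with each gene, capitals mark any of these motifs, and the strand is that of the gene (mm9).

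**Figure D2:**
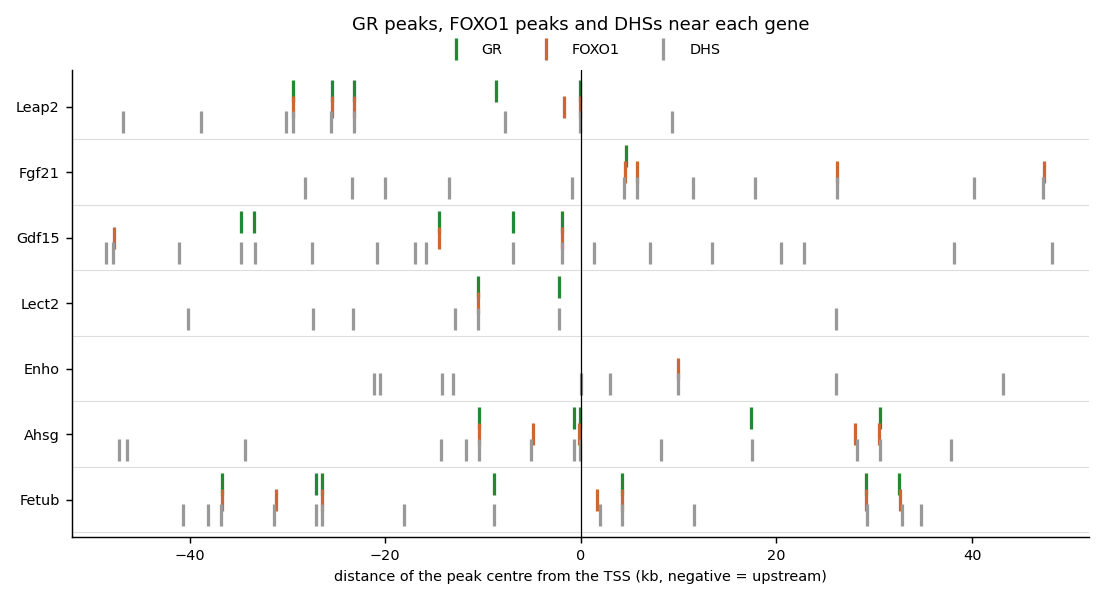
Distance of peak centres from the TSS (x axis, kb, negative upstream) for GR peaks, FOXO1 peaks and DHSs, with 1 gene per line and the TSS at 0. Leap2 (-118 and -76 bp) and Ahsg (-128 and -173 bp) had GR and FOXO1 peaks centred just upstream of the TSS. Gdf15 had both within a few kb upstream, and Lect2 had a GR peak there and its FOXO1 peak at -10486 bp. Fgf21 had both downstream, and Enho had a single FOXO1 peak.

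Leap2 (NM_153069, chr11:53235683-53236672, minus strand) encodes a short peptide that opposes ghrelin at its receptor. Just upstream of its start site were centred a GR peak at -118 bp and a FOXO1 peak at -76 bp, which overlapped each other and a DHS at -37 bp. A further FOXO1 peak lay at -1762 bp, and a GR peak without FOXO1 and outside a DHS at -8659 bp. GR and FOXO1 peaks overlapped within DHSs at -23165, -25462 and -29403 bp (GR centres). The GR window next to the start site is shown because it overlaps the TSS-proximal FOXO1 peak and DHS, and it holds none of the 6 motifs. The FOXO1 window further upstream is shown for its forkhead core. Both are intergenic.

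Leap2 GR, chr11:53236701-53236880: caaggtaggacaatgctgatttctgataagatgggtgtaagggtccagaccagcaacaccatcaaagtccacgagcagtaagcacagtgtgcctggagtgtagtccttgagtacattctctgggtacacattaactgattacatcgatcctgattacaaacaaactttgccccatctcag
Leap2 FOXO1, chr11:53238345-53238524: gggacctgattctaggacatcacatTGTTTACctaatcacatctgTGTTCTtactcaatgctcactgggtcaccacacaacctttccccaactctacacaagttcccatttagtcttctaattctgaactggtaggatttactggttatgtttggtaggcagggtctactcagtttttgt

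In uninjected mice, Leap2 was 24.9 and 19.7 RPKM at ZT10, 15.6 and 9.97 at ZT14-unfed, and 36.5 and 34.8 at ZT14-fed. Both fed mice were above all 4 unfed mice, and both ZT14-unfed mice were below both ZT10 mice. The meal difference was 1.48 ± 0.20 (SE) on the log2 scale, 2.78-fold (95% interval 1.00 to 1.95 on the log2 scale, adjusted p 0.0119), and missed the threshold of 0.01 of this experiment. The difference from ZT10 without food was -0.80 ± 0.20 (adjusted p 0.0529). Without ZT14-unfed replicate 1, the higher of the unfed pair, the meal difference was 1.79 (adjusted p 0.000988) and the time difference -1.11 (adjusted p 0.00889).

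Among injected mice no meal difference was seen. With vehicle, Leap2 was 16.8, 18.5, 19.99 and 17.0 RPKM without food and 24.4, 17.8, 20.3 and 12.1 with food, so that the fed mice lay on both sides of the unfed mice. The meal difference was 0.01 ± 0.16, with a 95% interval of -0.33 to 0.34 that lies below the interval of the uninjected mice, and among replicates 1 to 3 alone it was 0.16 (adjusted p 0.426). The experiments differed in RNA preparation, injection and depth, and the difference between them was not tested.

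Dex lowered Leap2 in fed mice, and mice given S961 with dex were above those given dex alone. With dex, Leap2 was 11.05, 11.9, 11.6 and 10.3 RPKM, below every vehicle-injected fed mouse. Leap2 fell by 0.67 ± 0.16 on the log2 scale (0.629-fold, adjusted p 0.0271). With S961 alone it was 17.6, 21.6, 23.4 and 14.8 RPKM, which overlapped with vehicle (0.07 ± 0.16, interval -0.27 to 0.41). With both agents it was 18.0, 17.4, 17.8 and 16.6 RPKM, all above all mice that received dex alone, and it rose by 0.62 ± 0.16 (1.54-fold, adjusted p 0.0422) against dex. The interaction of the agents was 0.55 ± 0.23 (interval 0.07 to 1.02, adjusted p 1.00).

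The dex difference missed the threshold without vehicle replicate 1, 2 or 3 or dex replicate 1 or 2 (adjusted p up to 0.0933), with median-ratio scaling (-0.57, adjusted p 0.0676), with quantile normalization (-0.60, adjusted p 0.0632) and with the compared groups alone (adjusted p 0.141). Among replicates 1 to 3 alone it was -0.82 (adjusted p 0.002). The S961 difference on top of dex was lost without vehicle replicate 2, without any mouse of the dex group or of the group with both agents, without unfed vehicle replicate 1, 2 or 3 (adjusted p up to 0.112) and without a filter (0.0634), and passed among replicates 1 to 3 (0.60, adjusted p 0.0119). Before scaling, the median of all genes moved by -0.10 with dex and -0.14 with both agents, against -0.01 and -0.002 after median-ratio scaling. Kupffer cell and macrophage markers (6 genes, among them Clec4f) summed to 65.0 to 101 RPKM in fed vehicle mice and to 42.3 to 66.4 with dex, where 1 of 6 fell (median -0.51, 3 of 6 among replicates 1 to 3 and 0 of 6 with median-ratio scaling). Endothelial markers (5 genes, among them Clec4g) summed to 60.5 to 71.2 RPKM with vehicle and 50.1 to 62.6 with dex, where 2 of 5 fell (median -0.47, 4 of 5 among replicates 1 to 3 and 1 of 5 with median-ratio scaling). None of these markers was at 0 in either group, and their part in the Leap2 difference was not tested.

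No difference of Leap2 with GR loss was detectable. It was 27.0, 21.3, 29.3 and 12.7 RPKM with AAV-GFP and 22.7, 23.0, 27.2 and 14.3 with AAV-CRE, in overlapping ranges. The difference was -0.02 ± 0.26 (interval -0.58 to 0.55, adjusted p 0.979).

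Leap2 was also lower after loss of Irs1 and Irs2. It was 46.7, 26.5, 26.4 and 33.3 RPKM in the floxed controls and 18.3, 3.84, 7.05 and 3.16 in L-IRSdKO, with no overlap. Leap2 fell by 2.25 ± 0.46 (0.21-fold, interval -3.30 to -1.20, adjusted p 0.0138), and all mice of both groups had eaten and received dex. The L-IRSdKO values rest on few reads, at about 35.3, 8.6, 13.9 and 7.5 counted units, against 51.3 to 89.9 in the controls. Replicate 1 of L-IRSdKO was the highest of its group, and without it the difference was -2.73 (adjusted p 0.000382). With any of the 8 libraries left out it was between -2.73 and -1.95 and passed. Of the hepatocyte markers 1 of 6 fell (median -0.09 beside 0.03 for all genes). They include Alb, which lies at the compressed top of the range in these libraries, so the list cannot show whether hepatocyte content changed. Kupffer cell markers summed to 145 to 269 RPKM in controls and 258 to 330 in L-IRSdKO (2 of 6 rose, 0 of 6 without L-IRSdKO replicate 1). Endothelial markers summed to 88.9 to 116 and 108 to 143 RPKM (3 of 5 rose, with or without replicate 1), and of 3 tested stellate and fibroblast markers 1 rose (0 without replicate 1). The part of these markers in the falls of Leap2 and Lect2 was not tested. In whole liver, a smaller share of hepatocytes and less RNA per hepatocyte cannot be told apart, here and for all genes below.

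In the diet experiment, Leap2 was 69.1, 26.0 and 21.9 RPKM in unfed lean mice and 84.9, 63.4 and 113 in fed lean mice. It was 40.7, 60.8 and 47.2 RPKM in unfed obese mice and 88.9, 109 and 125 in fed obese mice. All 3 fed obese mice were above all 3 unfed obese mice, and 1 unfed lean mouse lay within the range of the fed lean mice. The meal differences were 1.30 ± 0.37 in lean (adjusted p 0.026) and 1.11 ± 0.37 in obese mice (adjusted p 0.0862), neither past 0.01. Without that 1 unfed lean mouse (replicate 1), the lean difference was 1.81 (adjusted p 0.00217). The meal differences of the diets differed by -0.19 ± 0.52 (interval -1.32 to 0.95), and obese and lean mice by 0.52 ± 0.37 unfed and 0.33 ± 0.37 fed.

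Fgf21 (NM_020013, chr7:52869277-52870860, minus strand) encodes the fasting and stress hormone. The closest peak of either factor was a FOXO1 peak centred 4521 bp past the TSS, beyond the end of the gene. It overlapped a GR peak at 4568 bp and a DHS, and further FOXO1 peaks in DHSs lay at 5791, 26209 and 47314 bp. The nearest DHS was at -898 bp. The shared GR and FOXO1 site is shown because it is the only GR peak within 50 kb, and it holds none of the motifs. The DHS is shown because it holds a match to the amino acid response element motif upstream of the start. Of all DHSs, 3.86% held such a match.

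Fgf21 GR, chr7:52866203-52866382: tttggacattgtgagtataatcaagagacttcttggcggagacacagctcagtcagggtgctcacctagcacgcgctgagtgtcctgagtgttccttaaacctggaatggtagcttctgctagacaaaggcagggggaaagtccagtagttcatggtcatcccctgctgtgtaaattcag
Fgf21 DHS, chr7:52871675-52871842: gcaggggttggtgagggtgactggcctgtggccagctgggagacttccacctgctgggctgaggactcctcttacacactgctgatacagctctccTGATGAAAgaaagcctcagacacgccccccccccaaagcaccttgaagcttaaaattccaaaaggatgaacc

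S961 raised Fgf21 in fed mice. It was 0.539, 0, 0.085 and 0.23 RPKM with vehicle, where a value of 0 is a listed zero, and 1.41, 2.37, 4.55 and 8.44 with S961. All S961 mice were above all vehicle mice, which held between 0 and about 5.9 counted units for the gene against 15.7 to 79.3 with S961. Fgf21 rose by 2.53 ± 0.44 (5.78-fold on the log2(RPKM + 0.5) scale, interval 1.61 to 3.46, adjusted p 0.00561). The size depends on the added constant, at 3.80 with 0.1 RPKM and 1.92 with 1 RPKM, the call held with any library left out (adjusted p up to 0.0233) and among replicates 1 to 3 alone (2.17, adjusted p 0.0164), and it was lost with vehicle and S961 fitted without the other groups (adjusted p 0.079).

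With dex added, Fgf21 was between vehicle and S961. It was 0.489, 0, 0.294 and 0 RPKM with dex alone and 0.369, 1.82, 0.694 and 1.58 with both agents. The latter overlapped with S961 alone (dex on top of S961 -1.41 ± 0.44, interval -2.33 to -0.48, adjusted p 0.127) and with vehicle (1.12 ± 0.44, adjusted p 0.112). The interaction was -1.36 ± 0.63 (adjusted p 1.00). In unfed vehicle mice Fgf21 was 1.19, 1.56, 1.30 and 0.206 RPKM, and the meal difference of -1.08 ± 0.44 did not pass (adjusted p 0.187), though among replicates 1 to 3 alone it was -1.46 (adjusted p 0.0479).

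The PPAR alpha targets, enzymes of fatty acid oxidation and lipid handling, were in part higher in the same mice. With S961, 5 of 12 rose (median 1.03 beside -0.08 for all genes), among them Plin2, a lipid droplet coat protein, by 1.52 and Ehhadh, a peroxisomal enzyme, by 1.32. With S961 on top of dex 7 of 12 rose, among them Acot1 by 1.82 and Plin2 by 1.39, and with dex alone 2 fell, Plin2 by 0.94 and Vnn1 by 0.86 (0 of 12 with median-ratio scaling). Dex on top of S961 lowered 2 of 12, Plin2 by 1.06 and Ehhadh by 0.89. Among replicates 1 to 3 alone 3 rose with S961. Plin2 was also the gene most like Fgf21 over the 54 libraries once the mean of each experiment was removed (Pearson r 0.732), followed by Rab30 (0.71) and Rtf2 (0.669), a description over libraries that share their groups and depth.

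Other lists tied to Fgf21 were counted with S961 as well. The lists were not tested against each other, and their part in the Fgf21 difference was not tested. Of 8 transcription factors known to act on it (Ppara, Creb3l3, Mlxipl, Atf4, Nr1h4, Rora, Thrb and Hnf4a) 0 passed with S961, of 8 tested genes of the integrated stress response 0 passed, and of 8 ChREBP targets 2 rose, among them Txnip by 2.30. Of its 5 receptor genes 0 passed with S961, while Fgfr4 fell by 0.79 with S961 on top of dex. Cidec, the only adipocyte marker past the filter, rose by 1.35 with S961, while 2 of the 4 adipocyte markers were listed at 0 in the S961 mice, and their part in the Fgf21 difference was not tested.

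Elsewhere no difference of Fgf21 passed. In uninjected mice it was 0.078 and 0.103 RPKM at ZT10, 0.304 and 1.25 at ZT14-unfed and 0.036 and 0.243 at ZT14-fed, too low to be tested. It was 1.61, 0.59, 0.304 and 0.424 RPKM with AAV-GFP and 1.29, 0.784, 5.24 and 0.918 with AAV-CRE (0.86 ± 0.45, adjusted p 0.329), with 1 high mouse. After loss of Irs1 and Irs2 it was 0.868, 0, 0.283 and 0 RPKM against 0.581, 1.11, 0 and 1.58 in controls, at most 5.9 counted units in any of the 8 libraries, and the difference of -0.69 ± 0.50 (interval -1.82 to 0.44) was not detectable at this depth, nor was that of -0.998 without L-IRSdKO replicate 1 (adjusted p 0.178). PPAR alpha targets rose in both knockouts, 4 of 12 with GR loss (Vnn1 by 1.65 and Ehhadh by 0.68, but 1 of 12 with median-ratio scaling) and 8 of 12 in L-IRSdKO (Pdk4 by 3.56 and Ehhadh by 0.80).

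In the diet experiment the fed obese mice had the highest Fgf21. It was 3.65, 5.02 and 1.11 RPKM in fed obese and 0.112, 0.501 and 0.562 in fed lean mice, without overlap, and 0.271, 1.88 and 2.23 in unfed obese and 1.72, 1.31 and 0.25 in unfed lean mice, which overlapped. Fed obese against fed lean mice differed by 1.94 ± 0.58 (interval 0.67 to 3.22, adjusted p 0.124). The meal difference was -0.74 ± 0.58 in lean and 0.96 ± 0.58 in obese mice, and these differed by 1.70 ± 0.82 (interval -0.11 to 3.50, adjusted p 0.36). None of these passed. No gene of the table passed for fed obese against fed lean mice.

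**Figure D3:**
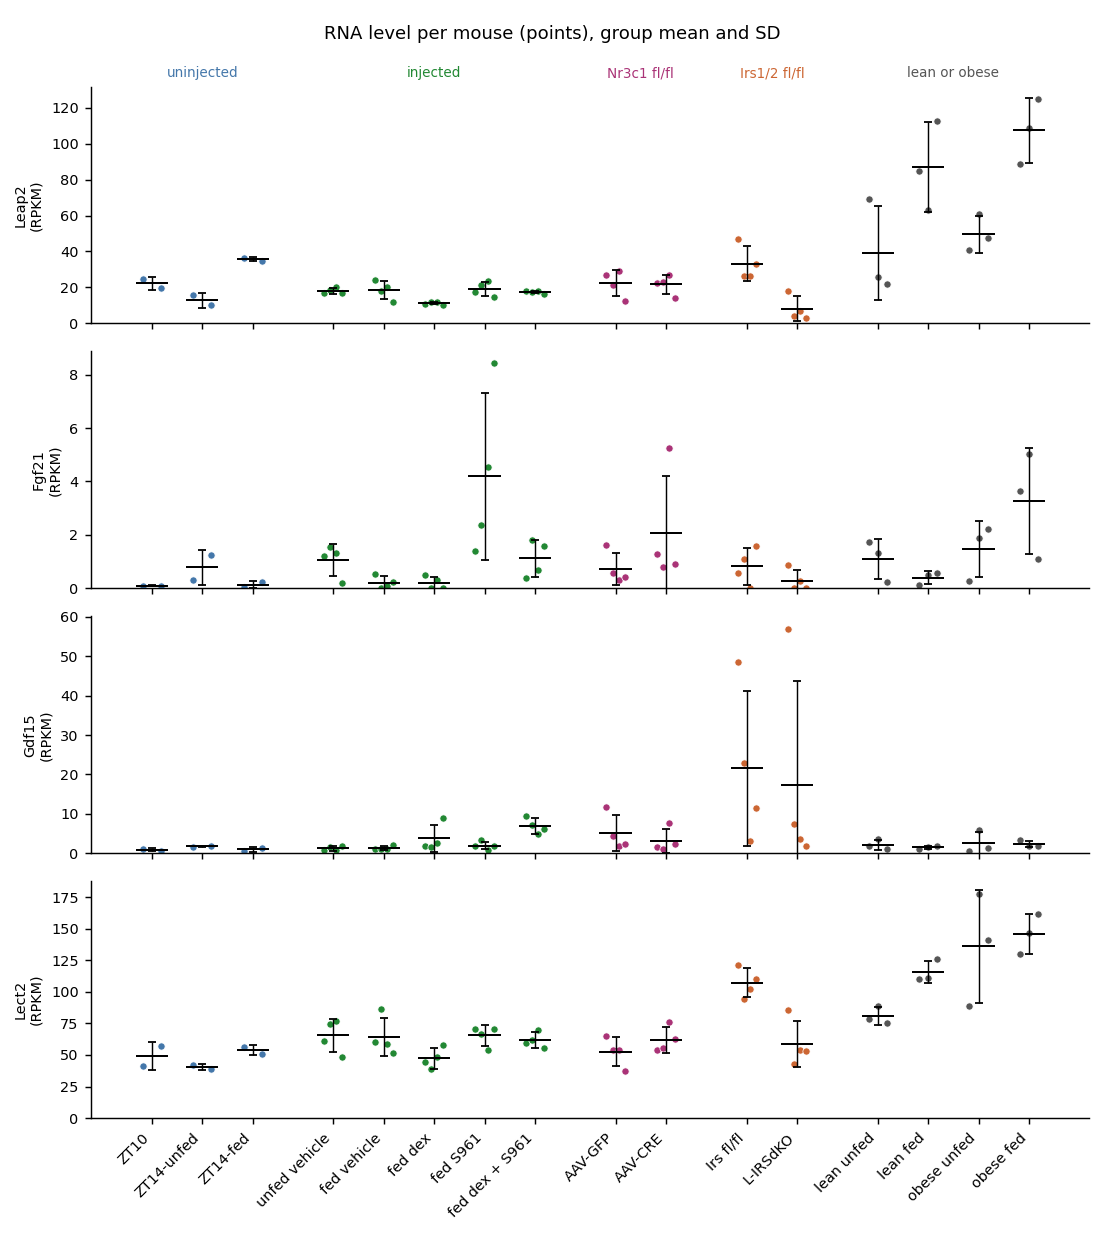
RNA level (y axis, RPKM) of Leap2, Fgf21, Gdf15 and Lect2 in each mouse (points) by group (x axis), with group mean and SD (bars cut at 0). Leap2 was lowest in L-IRSdKO and highest in fed mice of the diet experiment, the mean of Fgf21 was highest with S961, and Gdf15 spread from 1.78 to 56.8 RPKM within L-IRSdKO alone.

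Gdf15 (NM_001330687, chr8:73153292-73156355, minus strand) encodes the stress-induced hormone of the TGF beta family. GR and FOXO1 peaks overlapped at -1931 and -1888 bp within a DHS and again at -14538 and -14484 bp outside a DHS, and GR peaks without FOXO1 lay at -6915, -33416 and -34735 bp. The window at -14538 bp is shown because it holds matches to the GR inverted repeat core, a GR arm and the amino acid response element motif. It is intergenic.

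Gdf15 GR, chr8:73170804-73170983: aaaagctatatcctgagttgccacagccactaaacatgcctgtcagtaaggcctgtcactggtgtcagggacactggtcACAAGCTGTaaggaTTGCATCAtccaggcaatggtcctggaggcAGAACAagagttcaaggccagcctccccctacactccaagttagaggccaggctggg

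Gdf15 was highest among injected mice when dex and S961 were given together. It was 1.045, 1.06, 1.044 and 2.05 RPKM with vehicle and food, 0.7, 1.53, 0.687 and 1.84 with vehicle and no food, and 9.54, 7.11, 4.82 and 6.03 with both agents. The mice with both agents were above all fed and unfed vehicle mice. Gdf15 rose by 2.03 ± 0.40 against fed vehicle (4.09-fold, adjusted p 0.00306) and by 2.15 ± 0.40 against unfed vehicle (4.45-fold, adjusted p 0.00611). Both held under each alternative tried and with any library left out (adjusted p up to 0.0126 and 0.0274 in the latter), and were 2.26 (adjusted p 0.00117) and 2.38 (adjusted p 0.00157) among replicates 1 to 3 alone. Against fed vehicle, 3 of 6 Kupffer cell and macrophage markers fell with both agents (sums of 52.3 to 61.8 RPKM, 5 of 6 among replicates 1 to 3 and 0 of 6 with median-ratio scaling), and against unfed vehicle 0 of 6 passed. Their part in the Gdf15 difference was not tested.

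Either agent alone gave smaller differences. Gdf15 was 1.94, 1.45, 2.69 and 8.95 RPKM with dex (0.98 ± 0.40, adjusted p 0.187) and 1.81, 3.32, 0.912 and 1.71 with S961 (0.39 ± 0.40, interval -0.45 to 1.22). The high dex value belonged to replicate 4. The dex difference was 0.50 (adjusted p 0.441) without that library and 0.68 (adjusted p 0.225) among replicates 1 to 3 alone. Dex on top of S961 raised Gdf15 by 1.65 ± 0.40 (3.13-fold, adjusted p 0.0373), with no overlap, but this was lost without S961 replicate 1, 3 or 4 or without replicate 1, 2 or 4 of both agents (adjusted p up to 0.119), and without a filter (0.072), and was 1.68 (adjusted p 0.0135) among replicates 1 to 3 alone. S961 on top of dex gave 1.05 ± 0.40 (adjusted p 0.183), and 1.58 (adjusted p 0.0142) among replicates 1 to 3 alone. The interaction was 0.67 ± 0.56 (interval -0.51 to 1.84), so that an effect of both agents beyond their sum was not detectable.

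Genes of the integrated stress response, which ATF4 and CHOP control together with Gdf15, were divided under both agents. Of 8 tested, 2 rose, Trib3 by 1.36 and Chac1 by 1.495, and Ddit3, which encodes CHOP, fell by 1.03 (not past the threshold with median-ratio scaling or among replicates 1 to 3). None passed with dex alone. In L-IRSdKO, Trib3 rose by 1.94 and Sesn2 by 1.39 while Ddit3 fell by 1.16, and without L-IRSdKO replicate 1 the counts were 3 higher and 2 lower of 8.

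In the other experiments Gdf15 ranged so widely within groups that no difference passed. It was 48.5, 22.9, 3.15 and 11.5 RPKM in floxed controls and 56.8, 7.38, 3.49 and 1.78 in L-IRSdKO (-0.91 ± 1.05, interval -3.28 to 1.47), and -1.85 without L-IRSdKO replicate 1 (adjusted p 0.134). These dex-injected fed mice had the highest group means of the study, 21.5 and 17.4 RPKM. Their libraries are not on a common scale with the others. The highest group means of Enho, 21.2 and 19.2 RPKM, were also in these mice, and the next was 9.83 RPKM. The other genes did not have their highest means there, and Ahsg had its lowest (610.4 and 540.2 RPKM). Without a common scale, the group means do not show that Gdf15 was higher in these mice than in the other experiments. Gdf15 was 11.7, 4.37, 1.93 and 2.40 RPKM with AAV-GFP and 1.45, 1.01, 7.56 and 2.21 with AAV-CRE (-0.67 ± 0.56). In the diet experiment it was 1.72, 3.59 and 1.11 RPKM in unfed lean, 1.11, 1.58 and 1.70 in fed lean, 0.503, 5.91 and 1.38 in unfed obese and 3.26, 1.88 and 1.88 in fed obese mice, where the 3 fed obese mice were above the 3 fed lean mice (0.51 ± 0.55, adjusted p 0.648). In uninjected mice it was 1.15 and 0.565 RPKM at ZT10, 1.57 and 1.87 at ZT14-unfed and 0.571 and 1.41 at ZT14-fed (meal -0.63 ± 0.30, adjusted p 0.226). Its receptor gene Gfral was listed at 0 in all libraries. The genes most like Gdf15 were Smox, a polyamine oxidase (r 0.693), Plin4 (0.683) and Iqsec2 (0.648).

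Lect2 (NM_010702, chr13:56643821-56649899, minus strand) encodes a chemotactic hepatokine. A GR peak in a DHS was centred at -2256 bp, and GR and FOXO1 peaks overlapped at -10533 and -10486 bp. The window at -2256 bp is shown because it is the nearest site and holds a C/EBP motif. It is intergenic.

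Lect2 GR, chr13:56652066-56652245: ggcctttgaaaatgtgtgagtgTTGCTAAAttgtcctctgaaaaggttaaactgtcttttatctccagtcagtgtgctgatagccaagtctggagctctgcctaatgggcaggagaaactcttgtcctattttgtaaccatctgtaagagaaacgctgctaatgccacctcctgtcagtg

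Lect2 fell with loss of Irs1 and Irs2, as Leap2 did. It was 121, 94.6, 103 and 110 RPKM in floxed controls and 85.4, 43.1, 53.9 and 52.8 in L-IRSdKO, without overlap. Lect2 fell by 0.90 ± 0.19 (0.535-fold, interval -1.32 to -0.48, adjusted p 0.0138). Without L-IRSdKO replicate 1, the highest of its group, the difference was -1.10 (adjusted p 0.000326), and with any library left out it was between -1.10 and -0.77 and passed.

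The dex differences of Lect2 had the signs of those of Leap2 but did not pass. With dex it was 44.4, 38.7, 48.4 and 58.0 RPKM against 60.4, 86.1, 58.7 and 51.9 with vehicle (-0.43 ± 0.17, adjusted p 0.173), and -0.62 (adjusted p 0.0257) among replicates 1 to 3. With both agents it was 59.2, 61.9, 70.1 and 55.4 RPKM (S961 on top of dex 0.39 ± 0.17, adjusted p 0.252). Over the 54 libraries, with the mean of each experiment removed, Leap2 and Lect2 had the highest correlation of any pair of the 7 genes (Pearson r 0.738), and the next was that of Enho and Ahsg (0.541). Dhrs1, a short-chain dehydrogenase, was among the 3 genes most like each of the 2 (0.768 with Leap2 and 0.815 with Lect2), with Apon (0.775) and Akr1c20 (0.773) for Leap2 and Fitm1 (0.807) and Aldh1a1 (0.802) for Lect2. Libraries of a group share their treatment, so these values describe the data set.

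Lect2 was 41.1 and 57.1 RPKM at ZT10, 42.4 and 38.6 at ZT14-unfed and 56.6 and 51.0 at ZT14-fed, where the fed mice were above the unfed mice of ZT14 (0.40 ± 0.16, adjusted p 0.15). In the diet experiment it was 78.6, 89.1 and 75.2 RPKM in unfed lean, 110, 111 and 126 in fed lean, 89.0, 178 and 142 in unfed obese and 130, 146 and 162 in fed obese mice. The fed lean mice were all above the unfed lean mice (0.51 ± 0.20, adjusted p 0.0861) and all below the fed obese mice (0.33 ± 0.20, adjusted p 0.378). Unfed obese against unfed lean mice differed by 0.69 ± 0.20 (adjusted p 0.0716), and by 0.97 (adjusted p 0.00309) without unfed obese replicate 1, whose 89.0 RPKM was just below the highest lean value. GR loss gave 0.25 ± 0.17 (53.8 to 76.5 against 36.9 to 64.8 RPKM, adjusted p 0.458).

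Enho (NM_027147, chr4:41585177-41587357, minus strand) encodes adropin. Its only GR or FOXO1 peak within 50 kb was a FOXO1 peak in a DHS centred 9951 bp past the TSS, in an intron of Dnaic1, and a DHS without either factor lay at the TSS (21 bp). The FOXO1 window is shown for its repeated forkhead core, which occurs 4 times.

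Enho FOXO1, chr4:41577317-41577496: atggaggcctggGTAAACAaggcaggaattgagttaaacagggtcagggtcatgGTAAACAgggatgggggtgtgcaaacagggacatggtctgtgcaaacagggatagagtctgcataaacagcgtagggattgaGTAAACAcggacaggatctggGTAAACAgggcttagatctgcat

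No comparison of Enho passed its threshold. In uninjected mice it was 7.46 and 9.38 RPKM at ZT10, 5.65 and 5.29 at ZT14-unfed and 7.88 and 8.01 at ZT14-fed. The ZT14-unfed mice were below the other 4 mice, by 0.57 ± 0.12 on the log2 scale against ZT10 (adjusted p 0.0347) and with a meal difference of 0.50 ± 0.12 (adjusted p 0.0567), at a threshold of 0.01. Among injected mice the groups overlapped, from 2.86 to 7.91 RPKM with fed vehicle, 3.10 to 3.99 with unfed vehicle, 3.71 to 8.32 with dex, 1.37 to 5.55 with S961 and 2.29 to 6.01 with both. The differences were 0.55 ± 0.36 for dex (0.81 among replicates 1 to 3 alone, adjusted p 0.228) and -0.50 ± 0.36 for S961. GR loss gave 0.34 ± 0.26, loss of Irs1 and Irs2 0.23 ± 0.28 (9.03, 24.96, 19.2 and 23.6 RPKM in controls and 18.2, 21.9, 23.2 and 21.6 in L-IRSdKO), and fed obese against fed lean mice -0.03 ± 0.42. Without L-IRSdKO replicate 1 the difference of Enho was 0.30 (adjusted p 0.519). The genes most like Enho were Agxt (r 0.651), an enzyme of glyoxylate detoxification, Yif1b (0.585) and Ang (0.578).

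Ahsg (NM_013465, chr16:22892115-22899511, plus strand) encodes fetuin-A, an inhibitor of mineralization and of the insulin receptor kinase, and Fetub (NM_001083904, chr16:22918455-22939839, plus strand) encodes fetuin-B, a protease inhibitor. Ahsg had a GR peak at -128 bp and a FOXO1 peak at -173 bp that overlapped each other in a DHS, and a further GR peak at -750 bp. Fetub had a FOXO1 peak at 1653 bp and overlapping GR and FOXO1 peaks at 4247 and 4189 bp, all within the gene and outside its exons. The Ahsg window is shown as a site next to the TSS shared by GR and FOXO1, with a GR arm and a C/EBP motif. The Fetub window is shown for its forkhead core.

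Ahsg GR, chr16:22891898-22892077: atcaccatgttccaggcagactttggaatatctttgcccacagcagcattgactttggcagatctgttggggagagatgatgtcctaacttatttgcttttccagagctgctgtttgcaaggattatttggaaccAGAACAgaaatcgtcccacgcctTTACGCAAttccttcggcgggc
Fetub FOXO1, chr16:22920019-22920198: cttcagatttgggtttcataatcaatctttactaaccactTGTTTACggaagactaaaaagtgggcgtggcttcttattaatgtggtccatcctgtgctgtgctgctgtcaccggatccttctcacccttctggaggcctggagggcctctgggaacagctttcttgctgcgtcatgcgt

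Ahsg and Fetub were the most abundant of the 7 genes, and had the lowest pooled SD within groups. In uninjected mice Ahsg was between 2454 and 2694 RPKM and Fetub between 73.9 and 87.3. In injected mice Fetub was between 263 and 333 RPKM in all 5 groups, and no difference between groups exceeded 0.06 on the log2 scale (intervals within -0.24 to 0.24). Ahsg was 3305, 3272, 3404 and 5218 RPKM with fed vehicle and 4429, 5179, 4628 and 5261 with dex, where dex replicates 1 to 3 were above vehicle replicates 1 to 3, and replicate 4 was high in both. The dex difference was 0.38 ± 0.18 (adjusted p 0.259), 0.51 (adjusted p 0.0228) among replicates 1 to 3 alone and 0.38 (adjusted p 0.039) with a term for replicate 4. With both agents Ahsg was 3496, 3530, 3576 and 4480 RPKM (S961 on top of dex -0.37 ± 0.18, adjusted p 0.322).

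Loss of Irs1 and Irs2 raised Ahsg by a small amount, from 534, 556, 546 and 525 RPKM in controls to 618, 607, 641 and 575 in L-IRSdKO. The groups did not overlap, and the rise was 0.18 ± 0.05 (1.13-fold, interval 0.07 to 0.29, adjusted p 0.0389). It was lost with 6 of the 8 libraries left out in turn (all but L-IRSdKO replicates 1 and 4, adjusted p up to 0.0976; 0.17 and adjusted p 0.0377 without L-IRSdKO replicate 1), with no filter (0.122), with median-ratio scaling (0.144) and without a variance trend (0.148). The replicate number as a block gave an adjusted p of 0.0586. In these libraries Ahsg stood at 1.94 to 2.57 counted units per base of transcript, against 29.9 to 230 in the other experiments, and the part of this compressed range in the difference was not tested. Fetub was 156 to 180 RPKM in controls and 176 to 198 in L-IRSdKO (0.16 ± 0.07, adjusted p 0.13, and 0.18, adjusted p 0.0943 without L-IRSdKO replicate 1), and passed with quantile normalization (0.23, adjusted p 0.0375). Of the neighbouring cystatin genes Hrg, Kng1 and Kng2, Kng2 rose in L-IRSdKO by 0.44, and 0 of 3 passed in the other comparisons.

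GR loss gave the widest difference of Fetub. It was 301, 254, 348 and 310 RPKM with AAV-GFP and 581, 396, 385 and 346 with AAV-CRE, overlapping at 1 mouse, with a difference of 0.47 ± 0.16 (interval 0.12 to 0.83, adjusted p 0.115). Ahsg was 3246, 3689, 4912 and 4003 RPKM against 4391, 3513, 4001 and 3913 (0.01 ± 0.15). In the diet experiment Ahsg was between 3386 and 4595 RPKM and Fetub between 253 and 396, and obese and lean fed mice differed by -0.16 ± 0.14 and -0.22 ± 0.18. Although they are neighbours, Ahsg and Fetub correlated over the libraries at r 0.241, and the genes most like them were Dohh (0.734), Lrrc47 (0.731) and Lsr (0.727) for Ahsg, and Kng1 (0.673), Gys2 (0.623) and Serpina6 (0.604) for Fetub.

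**Figure D4:**
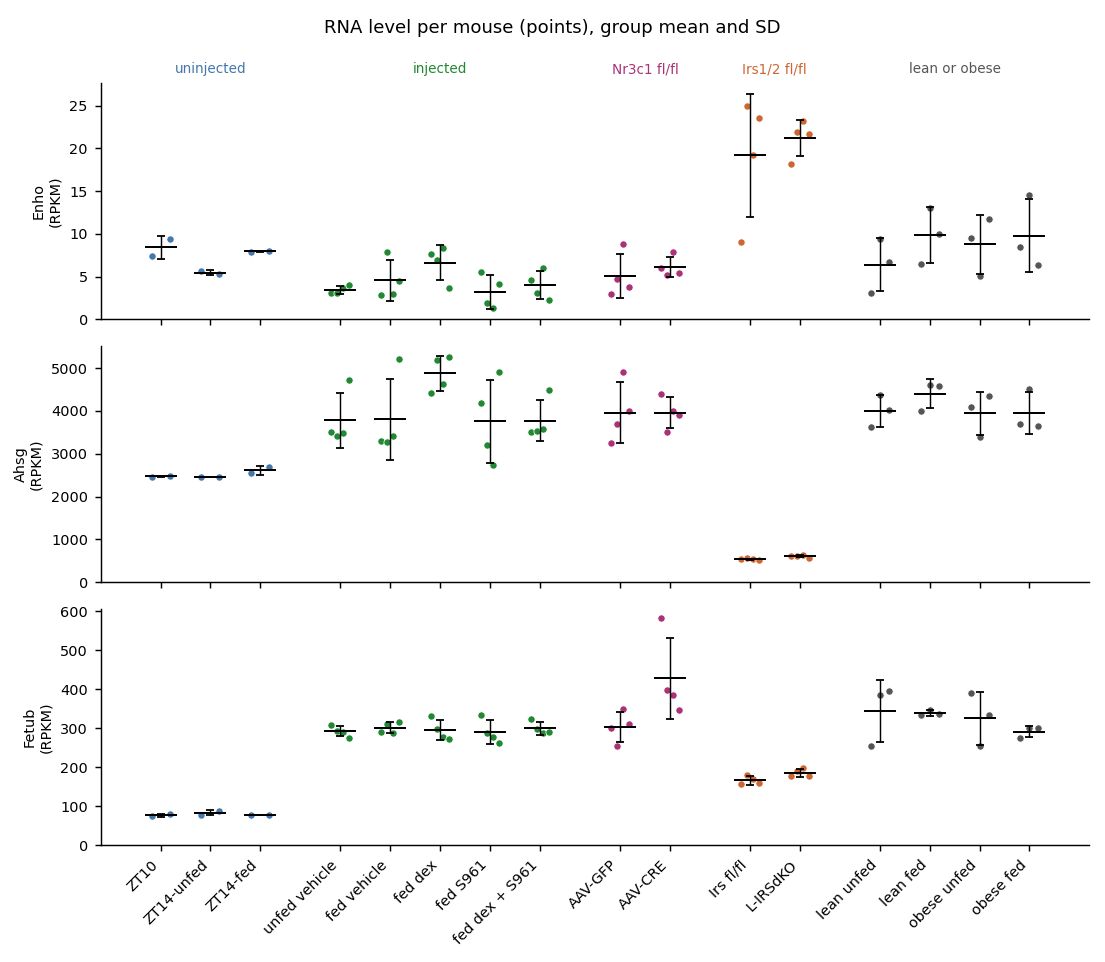
RNA level (y axis, RPKM) of Enho, Ahsg and Fetub in each mouse (points) by group (x axis), with group mean and SD. Groups within an experiment overlap for most comparisons, and Ahsg lies between 525 and 641 RPKM in the Irs1 fl/fl Irs2 fl/fl mice, where the top of the range was compressed.

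Other secreted factors of the liver, 21 genes on a fixed list, held some that changed in the same comparisons. Igfbp1, which binds insulin-like growth factors, fell with the meal (-6.35 in uninjected, -4.08 in vehicle-injected and -6.22 in lean mice) and rose by 2.70 with dex, by 4.07 with both agents and by 3.30 in L-IRSdKO. Angptl8, a meal-induced inhibitor of lipoprotein lipase, rose with the meal by 2.52 in vehicle-injected, 4.65 in lean and 2.61 in obese mice, and fell by 2.21 with both agents and by 2.54 in L-IRSdKO. Angptl4, another such inhibitor, rose by 1.64 with S961 and by 1.84 with both agents. In L-IRSdKO 5 of 21 rose and 6 fell (median 0.00 beside 0.03 for all genes), and without replicate 1 it was 5 and 7. Igfbp1 and Angptl8 moved with the meal in vehicle-injected mice, in which Leap2 differed by 0.01 ± 0.16 and Fgf21 by -1.08 ± 0.44. They were named for their small adjusted p, and a link between their changes and the differences of Leap2 and Fgf21 was not tested.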

How the data were processed

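The authors aligned RNA-seq reads to mm9 with STAR and deposited RPKM values per RefSeq transcript, and they used DESeq2 for their own comparisons. They called peaks with HOMER, kept GR and FOXO1 peaks found in both replicates, took DHSs from all DNase-seq libraries combined, and the deposited lists hold positions only. The tool that counted RNA reads is not given in the sources used here.

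The table held 35707 RefSeq IDs, of which 35407 had a symbol, and 0 value columns were left unused. Positions were those of the GENCODE annotation of mm9 (NCBIM37), with a TSS for 22121 symbols. GR and FOXO1 peaks are from unfed livers. The 7 genes, the gene lists and the tests were chosen with earlier results of these data known. The 5 experiments were fitted one by one, on log2(RPKM + 0.5) and with a variance trend, using limma 3.58.1 (R 4.3.3), after genes averaging under 0.5 RPKM were dropped (which left 10907, 11251, 11649, 12966 and 11434 genes in the order of the experiments). Named were the 7 genes, the deleted genes, at most 2 rising and 2 falling genes per list and comparison by smallest adjusted p, and the 3 genes with the highest correlation over all 54 libraries. Library size was read from the step of the RPKM values of short RNAs, which made at least 94.75% of values in each library whole within 0.05. No 2 libraries were identical. Fits were tested on simulated data with the means and spread of each experiment, at its threshold. Changes of 1 on the log2 scale were found for 36.6% of changed genes in uninjected mice and for 66.3% to 81.6% in the other experiments. Changes of 2 were found for 86.9% to 95.1%, and 1.19% to 7.14% of the calls were false. The alternatives were another added constant (0.1 or 1), another filter (none, or an average of 2 RPKM) and median-ratio scaling or quantile normalization. Further ones were a fit lacking the variance trend or the other groups of the experiment, and a fit with the replicate number as a block. In the injected mice a term for replicate 4 was also tried. The last were the other RefSeq IDs of a gene, peaks counted to 20 or 100 kb, and leaving out single libraries. Labels and methods differ on the unit of the S961 dose and the time of AAV injection. Python 3.11.15 with pandas 2.3.3 and numpy 2.4.6 handled peaks and sequences.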

Additional observations from a re-analysis of the deposited data

Results flagged for a closer look

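In groups of 4 mice, a value was singled out where its gap to the nearest other mouse took up most of the range of the group, at a limit that chance passes in about 1 in 20 groups. Of 63 groups of a gene, 7 held such a value. The Fgf21 value of AAV-CRE replicate 3 was 5.238 RPKM, with the nearest mouse at 1.285. Gdf15 was 56.84 RPKM in L-IRSdKO replicate 1 (nearest 7.381), 8.952 in dex replicate 4 (nearest 2.685) and 2.05 in fed vehicle replicate 4 (nearest 1.061). Ahsg was 5218 RPKM in fed vehicle replicate 4 (nearest 3404), 4480 in replicate 4 of both agents (nearest 3576) and 4724 in unfed vehicle replicate 4 (nearest 3500). Each injected group has 1 library of replicate 4, so that within a group the mouse and what the fourth libraries share cannot be told apart.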

How the results depend on the processing

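Of 2943 alternative fits of a gene and comparison, 2890 kept the side of the threshold, 39 lost a call, 14 gained one and 0 reversed a call. The count of genes past the threshold moved by over 1.5 times, or from or to 0, as follows. For the meal in uninjected mice it was 1 when genes averaging under 2 RPKM were dropped. For the meal in vehicle mice it was 1 among replicates 1 to 3 (an alternative chosen after seeing the data). For dex it was 0 with median-ratio scaling, with quantile normalization and with the compared groups alone. It was 2 with a term for replicate 4 and 3 among replicates 1 to 3. For S961 it was 0 with the same stricter filter, which removes Fgf21, and with the compared groups alone. For S961 on top of dex it was 0 without a filter and 2 among replicates 1 to 3, and for dex on top of S961 0 without a filter. For loss of Irs1 and Irs2 it moved less, to 2 without a filter, with median-ratio scaling and without a variance trend, and to 4 with quantile normalization. For the meal in lean mice it was 1 with the compared groups alone. The cause was not tested except where the filter removes the gene.

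With 1 library left out, the count ranged from 0 to 1 for time without food, the meal in uninjected mice, dex, S961 on top of dex, dex on top of S961, the meal in lean mice and obese against lean unfed mice, and from 2 to 3 for loss of Irs1 and Irs2. It stayed at 1 for S961, for both agents and for both agents against unfed mice, and at 0 in the others. Peaks within 20 kb numbered 14 (GR), 13 (FOXO1) and 37 (DHS), and within 100 kb 34, 40 and 146.

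Equal replicate numbers were not taken as a pairing of the mice, since no source says what they share and correlations of same-numbered mice passed 0.1 in 0 of 6, 27 of 40, 1 of 4, 0 of 4 and 3 of 18 pairs of the 5 experiments, not in every pair. In the injected mice same-numbered pairs had a median of 0.142, against -0.0506 for other pairs, and pairs of replicate 4 a median of 0.509. The replicate block changed 1 of 117 calls, that of Ahsg in L-IRSdKO, so that 2 genes passed there, and left 1 each for dex, S961, both agents, both against unfed, S961 on top of dex and dex on top of S961, and 0 elsewhere. Median-ratio scaling moved the share of called genes that were higher from 31.5% to 58.8% with dex and from 49.5% to 70.3% with S961. Fgf21 rests on few reads in most groups, which limits its precision.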
